A study of Brassica napus with 23 samples.

Results

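Chromosomes A03 and C03 of Brassica napus (oilseed rape) held 12589 of the 101040 genes in the deposited count table, 5476 of them on A03 and 7113 on C03. A gene was included when the table placed it on A03 or C03 itself. The 600 genes assigned to A03 and the 722 assigned to C03 without a fixed position were left out. RNA of shoots and roots was sequenced in 23 libraries. Seedlings received, 7 d after planting, either Pseudomonas chlororaphis PA23 (15 mL of bacterial culture), a strain studied as a biocontrol agent, or LB broth, a bacterial growth medium that served as the negative control. Tissue was taken 24 h or 7 d after the treatment, and a growth period of 14 d is stated for all plants. The 8 groups are shoots with PA23 or LB broth at 24 h, shoots with PA23 or LB broth at 7 d, and the same 4 groups of roots. Each group had 3 libraries except the root control group at 24 h, which had 2, labelled replicates 2 and 3. The last number in the library name of the former differs from its replicate number. The labels name no cultivar and do not say whether replicates came from separate plants or pools, so every p-value here reflects the variation among these libraries alone, and some of that may be technical.

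Brassica napus arose from a cross between an ancestor of turnip (Brassica rapa), which gave the A subgenome, and an ancestor of cabbage (Brassica oleracea), which gave the C subgenome. Most genes therefore exist as an A copy and a C copy, called homoeologues, that lie in a similar order on matching chromosomes. A03 and C03 are such a matching pair along much of their length. Exchanges between homoeologous chromosomes can replace a stretch of one subgenome by the matching stretch of the other. In RNA such a stretch appears as neighbouring genes without reads on one chromosome beside well-expressed partners on the other. The copies of a pair can also differ in level, or in the tissue in which they are used, without any such exchange.

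Depth ranged from 0.622 to 721 M counts per library (median 45.8 M), with the highest in root PA23 24 h replicate 1. In 6 libraries it was at most 1.70 M, and in the other 17 at least 16.8 M. The shallow libraries were replicate 1 of both shoot groups at 24 h, replicate 2 of both shoot groups at 7 d and replicate 3 of both root groups at 7 d. Low counts were odd in 18.9% to 33.6% of cases in 22 libraries and in 57.6% in root PA23 7 d replicate 1. Counts that are mostly even may not be independent of each other, which was not tested. Intervals and fold bounds based on counts may then understate the counting error. Replicates 1 and 3 of shoot PA23 at 7 d, 2 and 3 of shoot control at 7 d, and 2 and 3 of root PA23 at 24 h were closer to each other (coefficient of variation beyond counting error 1.92%, 6.66% and 4.65%) than any other replicates (9.85% to 37.6%). They still differed by more than counting error, if counts are taken as independent, and were kept as separate libraries. The labels do not say whether they are repeats of one sample, and the names of the first of these pairs end in the same number. Counts of called genes with the closest replicates summed are therefore given beside the counts they change. The tissue labels could not be checked against marker genes, because the table gives IDs only. Of the 12589 IDs, 400 (3.18%) occurred in a RefSeq gene table (assembly Da-Ae), each under a symbol that repeats the ID, so genes are given by ID without a role. Coordinates are those of the deposited table, and no genome build is stated for them in the sources used here.

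A larger share of the genes of A03 than of C03 was expressed. At a mean of 1 CPM (counts per M counts of a library, scaled between libraries) or more in shoot or root were 60.9% of the A03 genes, 53.9% of the C03 genes and 53.8% of all genes in the table. Under 0.1 CPM in both tissues were 24.5% of the A03 genes and 32.1% of the C03 genes, against 32.3% of all genes. No count in any library was recorded for 8.22% of the A03 genes and 12.9% of the C03 genes, against 13.0% of all genes. A03 was also more densely filled, with 184 genes per Mb over 29.7 Mb, whereas C03 had 117 genes per Mb over 60.6 Mb. The summed level per Mb was 2284 CPM on A03 and 1506 CPM on C03 in shoots, and 1702 CPM on A03 and 983 CPM on C03 in roots. These are descriptions of the same 23 libraries and were not tested.

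Short genes were rarely expressed on either chromosome. Of genes spanning under 500 bases, 15.4% on A03 and 12.3% on C03 reached 1 CPM in either tissue. Of genes spanning 500 to under 2000 bases it was 54.8% on A03 and 49.6% on C03, and of genes spanning 2000 bases or more 79.1% on A03 and 75.3% on C03. CPM is not corrected for length, so longer genes reach 1 CPM more easily. In each of these span classes the A03 share was above the C03 share.

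Both chromosomes were most often expressed near their starts. In the first 10% of the genes, 67.9% on A03 and 67.1% on C03 reached 1 CPM in either tissue. In the last 10% it was 52.7% on A03 and 47.0% on C03. When each chromosome was divided into windows of 50 consecutive genes, the share of genes at 1 CPM in shoots ran from 24.0% to 78.0% (median 50%) over the 109 windows of A03 and from 18.0% to 80.0% (median 46.0%) over the 142 windows of C03. In roots it ran from 32.0% to 80.0% (median 52.0%) on A03 and from 24.0% to 82.0% (median 48.0%) on C03.

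**Figure D1:**
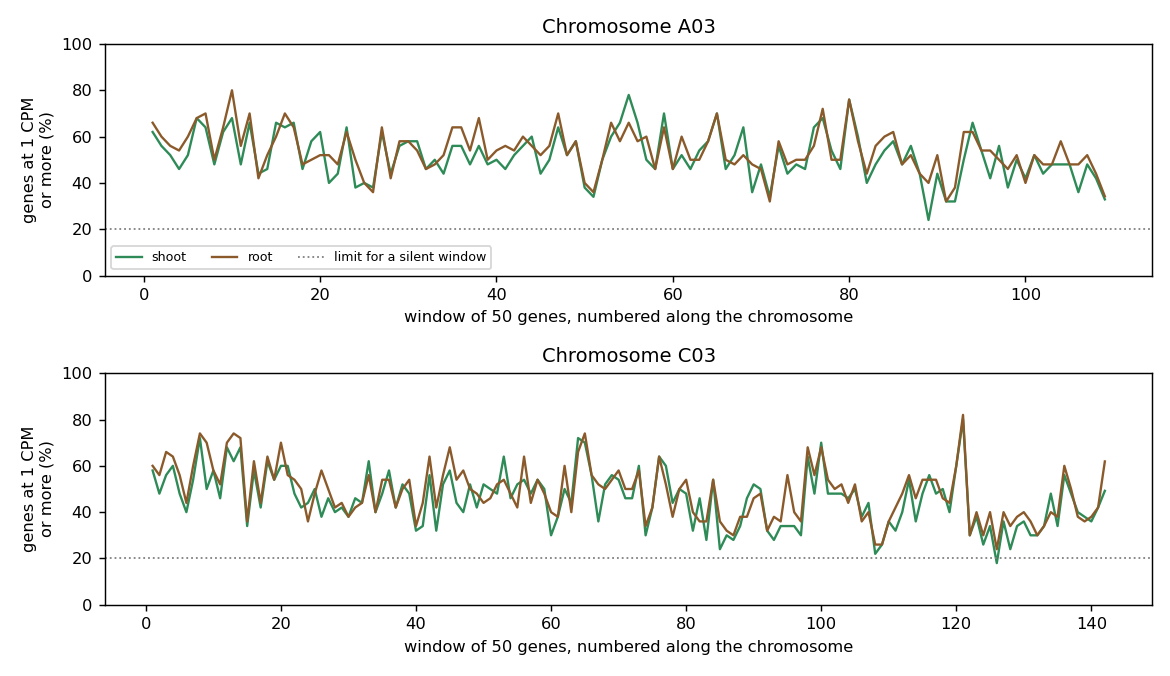
Share of genes at 1 CPM or more (vertical axis, percent) in consecutive windows of 50 genes (horizontal axis) along A03 and C03, for the mean of the shoot groups and of the root groups; the dotted line marks the 20% limit used to call a window silent. The shoot and root lines follow each other closely, and 1 window of C03 falls below the limit, in shoots at 18.0%.

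A window was called silent when under 20% of its genes reached 1 CPM and its median gene was under 0.1 CPM. By this rule 1 of the 502 tissue-by-window values was silent, on C03 in shoots, from BnaC03g62510D to BnaC03g63000D (C03, 51625710 to 52349702). It lies beyond the stretch of C03 that matches A03 in gene order, so it has no A03 counterpart in that alignment. Even there BnaC03g62580D was at 50.8 CPM in shoots and gave 44.1% of the summed level of the window. Without the 6 shallow libraries no window was silent. With windows of 25 genes, 9 of the values were silent, all on C03, and 5 of these lay in the stretch that matches A03. The window from BnaC03g36760D to BnaC03g37000D (C03, 22208860 to 22362755) was silent in both tissues, with 8.0% of its genes at 1 CPM in shoots and 16% in roots. Runs of neighbouring genes under 0.1 CPM in both tissues were short. There were 22 runs of 5 or more genes on A03 and 59 on C03. The longest on A03 held 8 genes, BnaA03g40460D to BnaA03g40530D (A03, 20222581 to 20251552), and the longest on C03 held 9 genes, in 4 places.

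To compare matching stretches, the genes of A03 and C03 were aligned by strand and gene span alone, without their counts. Anchor genes in the same order marked a matching stretch of 3791 genes of A03 (295602 to 19172886) and 4442 genes of C03 (467137 to 30422003). The anchors formed 12 chains, and long gaps between some chains held no anchor, such as from BnaA03g10880D to BnaA03g19020D. In the matching stretch 62.5% of the A03 genes and 57.1% of the C03 genes reached 1 CPM in either tissue. After it, no anchors between the 2 chromosomes were found over 1619 genes of A03 and 2572 genes of C03. Of these genes, 56.9% on A03 and 48.2% on C03 reached 1 CPM. Genes of A03 between 19954646 and 27545309 matched the order of genes on C07 (35249188 to 42982342) instead, with 71 anchor genes. The alignment of A03 with C03 had 165 anchors.

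Neither side was silent in any block of 50 A03 genes set against C03 by gene order. The stretch was divided into 75 blocks of about 50 A03 genes with their C03 counterparts. Between anchors the C03 borders of a block were interpolated. In the gaps the C03 side may therefore be displaced from the true counterparts. The share of a block's summed CPM that came from A03 had a median of 46.6% in shoots (range 21.5% to 78.1%) and of 46.1% in roots (range 26.3% to 80.4%). No block had an A03 share under 10% or over 90% in either tissue. C03 gave more than A03 in 50 of the 75 blocks in shoots and in 52 in roots. With blocks of 25 A03 genes (151 blocks), the A03 share ran from 10.7% to 88.4% in shoots and from 17.9% to 91.7% in roots. The C03 side was then silent in 1 block in shoots and in 2 in roots, and the A03 side in 0. The lowest share of genes at 1 CPM in any block of 50 A03 genes was 32.0% on the A03 side and 25.8% on the C03 side in shoots, and 32.0% on the A03 side and 27.4% on the C03 side in roots.

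**Figure D2:**
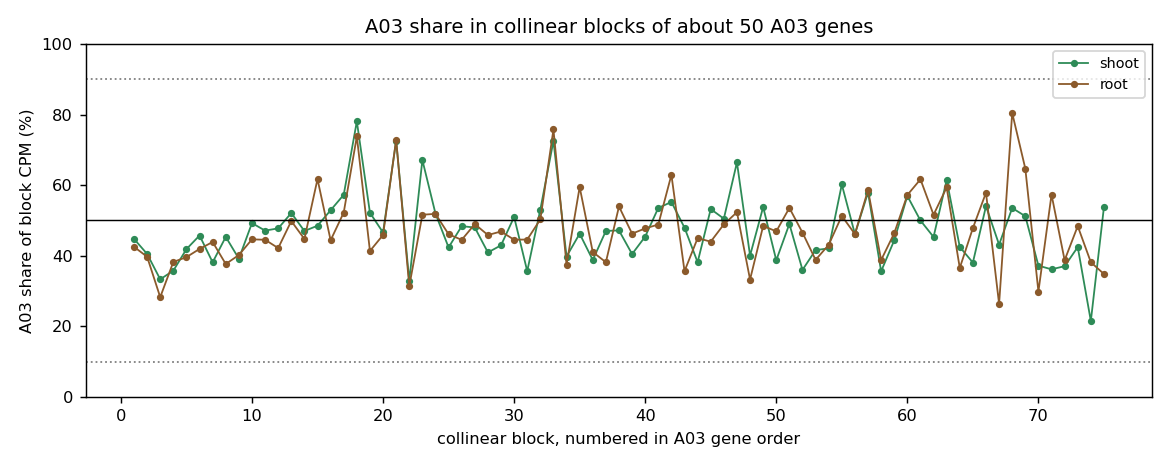
Share of each block's summed CPM that came from A03 (vertical axis, percent) for the 75 blocks in A03 gene order (horizontal axis), in shoots and in roots; the solid line is at 50% and the dotted lines at 10% and 90%. All blocks lie between 21.5% and 80.4%, and the shoot and root lines largely rise and fall together.

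The most uneven blocks were described singly. All of them lay in gaps between anchors, where the C03 side was interpolated. Block 18 (A03, 4129192 to 4317472, with C03, 5648082 to 5911661) had the highest A03 share in shoots, 78.1%, and 73.8% in roots. No single gene carried it, since the most abundant A03 gene of the block gave 21.3% of the A03 sum in shoots and 16.6% in roots. Block 74 (A03, 18376115 to 18680858, with C03, 28824977 to 29466562) had the lowest A03 share in shoots, 21.5%, and 38.1% in roots. In it a single C03 gene gave 72.8% of the C03 sum in shoots, and a single one 61.0% in roots. In roots the lowest share, 26.3%, and the highest, 80.4%, were those of the neighbouring blocks 67 and 68. BnaC03g39720D, among the most abundant root genes of C03, lay in block 67 and gave 45.2% of its C03 sum in roots. Its A03 partner BnaA03g34250D lay in block 68 instead and gave 31.6% of the A03 sum there. The interpolated borders thus set these copies in different blocks, which lowers the A03 share of block 67 and raises that of block 68.

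Within the stretch, 932 pairs of an A03 gene and a C03 gene on the same strand, with spans within 3% of each other, were taken as homoeologous pairs. The same rule found 98 and 146 pairs when the C03 genes were displaced by 200 genes in either direction, so part of the 932 may be chance matches. The CPM of the copies was compared without a correction for length. The spans are nearly equal, but they include introns, and transcript lengths are not given. No source used here states how reads that match both copies were assigned. The split within a pair is therefore uncertain where the copies are nearly identical. The mean levels of the copies followed each other across pairs (Spearman's rho 0.879 on the log2(CPM + 0.1) scale, n = 932 pairs measured in the same libraries). When each A03 copy was set against the C03 copy of the next pair, rho was 0.037.

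The C03 copy was more often the higher one. Among the 548 pairs with a summed level of 2 CPM or more in shoots, the A03 copy gave a median of 45.4% of the pair's level, and C03 was higher in 62.6% of pairs. Among the 597 such pairs in roots the median was 46.2%, and C03 was higher in 62.1%. Most pairs were shared fairly evenly, with an A03 share between 30% and 70% in 73.9% of pairs in shoots and 75.5% in roots. Near-complete one-sidedness was rare among these pairs and went both ways. Whether the one-sided pairs are true homoeologues or chance matches was not tested. The A03 share was under 10% in 28 pairs in shoots and 27 in roots, and over 90% in 21 pairs in shoots and 26 in roots. Such pairs were scattered, since the longest run of neighbouring expressed pairs on one side was 2 pairs.

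**Figure D3:**
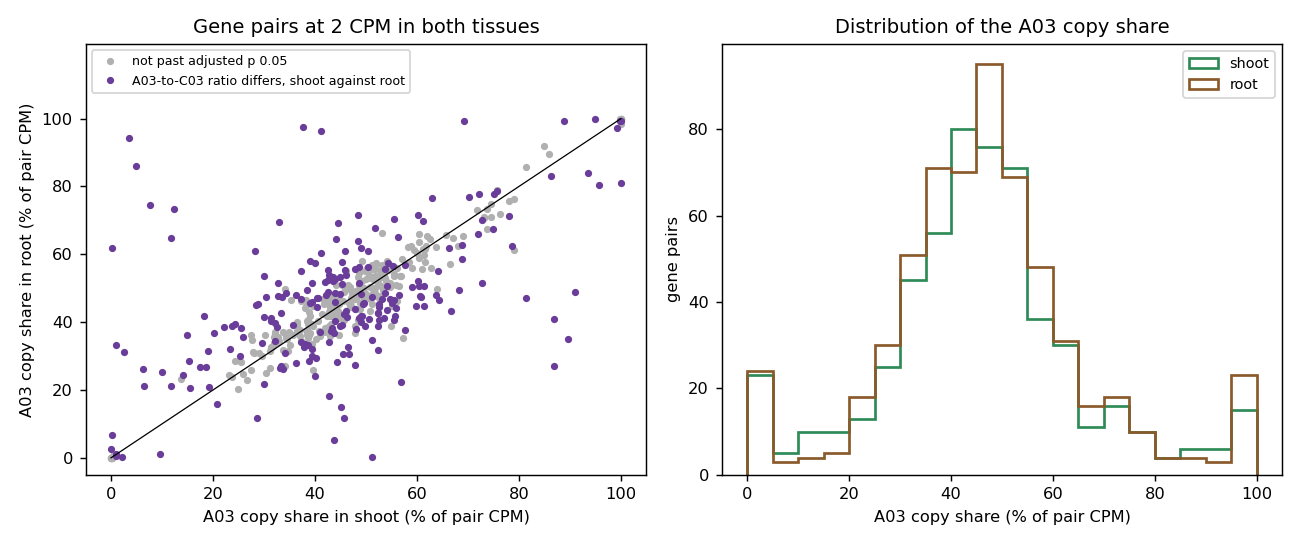
Left, A03 copy share of each pair's CPM in shoot (horizontal axis, percent) against root (vertical axis, percent) for pairs at 2 CPM or more in both tissues, with pairs whose ratio differed between tissues in purple; the line marks equal shares. Right, number of pairs (vertical axis) by A03 copy share (horizontal axis, percent) in shoot and root, with a broad peak just under 50% and small peaks at each end.

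The ratio of the copies was tested in edgeR's quasi-likelihood model with each library as a block and adjusted over the 623 pairs that passed the filter on level. Averaged over the 8 groups, the ratio differed from 1 in 489 pairs (78.5%), with A03 higher in 171 and C03 higher in 318. Of the 489, 193 differed by at least 2-fold, and the median log2 ratio of A03 to C03 over all 623 was -0.24. With the 6 shallow libraries left out the count was 522, and over the replicates left out in turn it ran from 472 to 494. A ratio of the copies also carries any difference in how uniquely reads map to each, which cannot be told apart from expression here.

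The most one-sided pairs had one copy near 0 in every library, and whether they are true homoeologues was not tested. BnaA03g36340D (A03, 17786543 to 17788801) had 11.9, 18.3 and 21.0 CPM as the lowest, median and highest of 12 shoot libraries and 2.04, 2.79 and 3.11 CPM over 11 root libraries. Its C03 partner BnaC03g42200D (C03, 27000059 to 27002369) had a median of 0 in both tissues, with highest values of 0.0395 CPM in shoots and 0.198 CPM in roots. The copies did not overlap in any library. BnaA03g24730D (A03, 11932665 to 11934498) had 4.10, 10.8 and 16.8 CPM in shoots and 5.57, 12.7 and 16.3 CPM in roots, while its partner BnaC03g29270D (C03, 17435849 to 17437633) stayed at or under 0.142 CPM in shoots and 0.125 CPM in roots. In the other direction, BnaA03g36110D (A03, 17658101 to 17659021) stayed at or under 0.158 CPM in shoots and 0.0563 CPM in roots. Its partner BnaC03g41970D (C03, 26798963 to 26799901) had 7.25, 16.8 and 24.4 CPM in shoots and 27.5, 31.9 and 42.3 CPM in roots. BnaA03g05960D (A03, 2714332 to 2715933) stayed at or under 0.293 CPM in shoots and 0.0514 CPM in roots, and its partner BnaC03g07690D (C03, 3628020 to 3629577) had 13.6, 21.0 and 27.7 CPM in shoots and 0, 10.0 and 13.7 CPM in roots. The value of 0 was in the shallow library root control 7 d replicate 3. The log2 ratios of A03 to C03 in these 4 pairs were 9.50 ± 0.24, 9.19 ± 0.19, -10.84 ± 0.16 and -9.60 ± 0.18 (SE).

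Shoot and root differed in about as many genes of A03 and C03 as in the table as a whole. In control plants at 24 h, 4378 of the 8904 tested genes of A03 and C03 (49.2%) differed between shoot and root (quasi-likelihood test in edgeR, with p adjusted by Benjamini-Hochberg over the 68002 genes tested and a threshold of 0.05), where 49.0% of all tested genes did (20.8% higher in shoots, 28.2% higher in roots). Higher in shoots were 892 genes of A03 and 996 of C03, and higher in roots 1184 of A03 and 1306 of C03. At 7 d, 4848 genes (54.4%) differed, against 54.0% of all tested genes (23.9% higher in shoots, 30.1% higher in roots). Higher in shoots were then 994 of A03 and 1145 of C03, and higher in roots 1303 of A03 and 1406 of C03. The median log2 fold change of shoot over root at 24 h was -0.17 for A03, -0.19 for C03 and -0.20 for all genes, and at 7 d -0.15 for A03, -0.09 for C03 and -0.09 for all genes. At both harvests, 18.7% of A03 genes and 18.0% of C03 genes were higher in shoots (18.1% of all genes), and 24.6% of A03 genes and 22.7% of C03 genes were higher in roots (23.8% of all genes). In whole tissues, fewer cells of a type and less RNA per cell cannot be told apart.

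Along the chromosomes, genes preferring either tissue were spread over the windows. Genes higher in shoots at both harvests made up a median of 18.9% of the tested genes of an A03 window (range 5.71% to 36.6%) and 17.9% of a C03 window (0% to 38.7%). Genes higher in roots made up a median of 24.2% on A03 (8.57% to 42.9%) and 22.6% on C03 (3.85% to 48.6%).

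The named genes of the tissue comparison at 24 h had no count in the control libraries of the lower tissue at that harvest. Their folds are the group mean over the CPM that 3 counts over the group at 0 would give, and they cover the control libraries alone. BnaA03g25060D (A03, 12086165 to 12088269) had 62.5, 81.9 and 80.4 CPM in control shoots and 0 in both control root libraries. That is at least 3157-fold higher in shoots, and the PA23 roots at 24 h had up to 0.0676 CPM. Its C03 partner BnaC03g29500D averaged 32.9 CPM in shoots and 0.0091 CPM in roots, so both copies were used in shoots. BnaA03g54590D (A03, 29342889 to 29343644) had 54.4, 74.1 and 47.4 CPM in control shoots and 0 in control roots, at least 2470-fold higher in shoots, with up to 0.0415 CPM in the other root libraries. BnaA03g46060D (A03, 23544351 to 23546586) was at 0 in all 3 control shoot libraries and had 111 and 80.1 CPM in control roots, at least 3013-fold lower in shoots, and PA23 shoots at 24 h had up to 0.0593 CPM. BnaA03g28160D (A03, 13756659 to 13760895) was at 0 in control shoots and had 69.3 and 67.2 CPM in control roots, at least 2156-fold lower in shoots, with up to 0.0445 CPM in the other shoot libraries. At 7 d the corresponding genes were BnaC03g10190D and BnaC03g60830D in shoots and BnaA03g30810D and BnaC03g36110D in roots. BnaC03g10190D (C03, 4910660 to 4911509) had 178, 138 and 130 CPM in control shoots and 0 in control roots, and BnaC03g60830D (C03, 49973090 to 49974996) had 81.0, 143 and 163 CPM in control shoots and 0 in control roots. They were at least 7556-fold and 6567-fold higher in shoots. Among PA23 roots at 7 d, BnaC03g10190D had 11.8 CPM in the shallow replicate 3 and 0 in the other replicates, and BnaC03g60830D had up to 0.103 CPM. BnaA03g30810D (A03, 14919821 to 14922958) was at 0 in control shoots and had 1007, 896 and 1095 CPM in control roots, at least 29058-fold lower in shoots. BnaC03g36110D (C03, 21861877 to 21864587) was at 0 in control shoots and had 337, 241 and 363 CPM in control roots, at least 9120-fold lower in shoots. In control shoots at 24 h these genes reached 1.17 and 1.13 CPM. The adjusted p of these 8 genes was at most 1.265e-05.

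Where both copies of a pair were called between shoot and root, they mostly went the same way. Of the 716 pairs with both copies tested in control plants at 7 d, both copies were higher in shoots in 131 and both higher in roots in 196. The copies went opposite ways in 16 pairs. In 74 pairs the test called the A03 copy alone and in 93 the C03 copy alone, and in 206 neither. The log2 fold changes of the copies had a Spearman's rho of 0.82 across these 716 pairs. How far reads that match both copies add to this agreement was not tested. The ratio of A03 to C03 nevertheless differed between shoot and root in 277 of the 623 tested pairs (44.5%). It was higher in shoots in 142 of these and higher in roots in 135, and 121 of the differences were at least 2-fold. The same copy was the higher one in both tissues in 182 of the 277. With the prefix of the library name as a covariate the count was 192.

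A change of the leading copy with at least a 2-fold lead in both tissues was rare among well-expressed pairs. Of 308 pairs at 10 CPM or more in both tissues, 1 had the A03 copy at least 2-fold higher in shoots and the C03 copy at least 2-fold higher in roots, and 0 had the opposite. The A03 copy of that pair, BnaA03g38300D (A03, 19026979 to 19030051), had 12.3, 23.2 and 26.8 CPM as the lowest, median and highest of the shoot libraries and 1.20, 2.45 and 6.13 CPM in roots. The C03 copy, BnaC03g45140D (C03, 30143256 to 30146360), had 0, 3.24 and 6.49 CPM in shoots and 2.09, 7.95 and 9.90 CPM in roots. The A03 copy was the higher one in every shoot library. The C03 copy was the higher one in every root library except the shallow replicates 3 at 7 d, in which the A03 and C03 copies had 5.57 and 2.09 CPM with PA23 and 6.13 CPM each in the control. The log2 ratio of A03 to C03 was 4.66 ± 0.18 (SE) higher in shoots than in roots.

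A few genes carried much of the signal in shoots. BnaC03g18980D (C03, 9831772 to 9832572) had 3222, 4030 and 5919 CPM as the lowest, median and highest of the shoot libraries and 0.388, 1.54 and 93.3 CPM in roots. BnaC03g59520D (C03, 48729525 to 48730653) had 3048, 3618 and 6448 CPM in shoots and a median of 1.02 CPM in roots. On A03 the highest in shoots were BnaA03g18710D (A03, 8804180 to 8806829), with a median of 2875 CPM, and BnaA03g15830D (A03, 7332749 to 7334101), with a median of 2036 CPM, against medians of 1.13 and 2.59 CPM in roots. Per kb of gene span, the mean shoot levels of these 4 genes were 5357, 3795, 1077 and 1710 CPM. The most abundant gene of each chromosome in roots was BnaA03g17020D on A03 (A03, 7983649 to 7985012), with a median of 97.4 CPM in shoots and 1107 CPM in roots, and BnaC03g44340D on C03 (C03, 29465468 to 29466562), with a median of 206 CPM in shoots and 479 CPM in roots. The 10 most abundant genes of each tissue gave 16.9% of the A03 signal and 22.1% of the C03 signal in shoots, and 9.72% of the A03 signal and 5.70% of the C03 signal in roots.

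The share of A03 in the counts of both chromosomes was lower in shoots than in roots. It was 42.7% ± 0.61 in the 12 shoot libraries (SD; range 41.8% to 43.5%) and 46.0% ± 0.58 in the 11 root libraries (range 44.8% to 46.7%). The difference was -3.25 percentage points, the groups did not overlap, and the 2-sided permutation test gave p = 1e-05, the smallest its 100000 resamples allow (adjusted over 5 comparisons 5e-05). Library names carry either of 2 prefixes, whose meaning the labels do not give. All shoot libraries have the same one, and among the libraries with it the difference between shoot and root was -3.65 points. The difference rested on a few genes. Without the 10 genes of each chromosome with the highest mean level over all libraries, the share was 44.5% ± 0.32 in shoots and 44.7% ± 0.19 in roots, a difference of -0.13 points. Those 10 genes summed to 9893 CPM on A03 and 18951 CPM on C03 in shoots, against 3458 CPM on A03 and 1130 CPM on C03 in roots. Over the 932 pairs alone the share was 46.1% ± 0.37 in shoots and 46.1% ± 0.33 in roots.

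**Figure D4:**
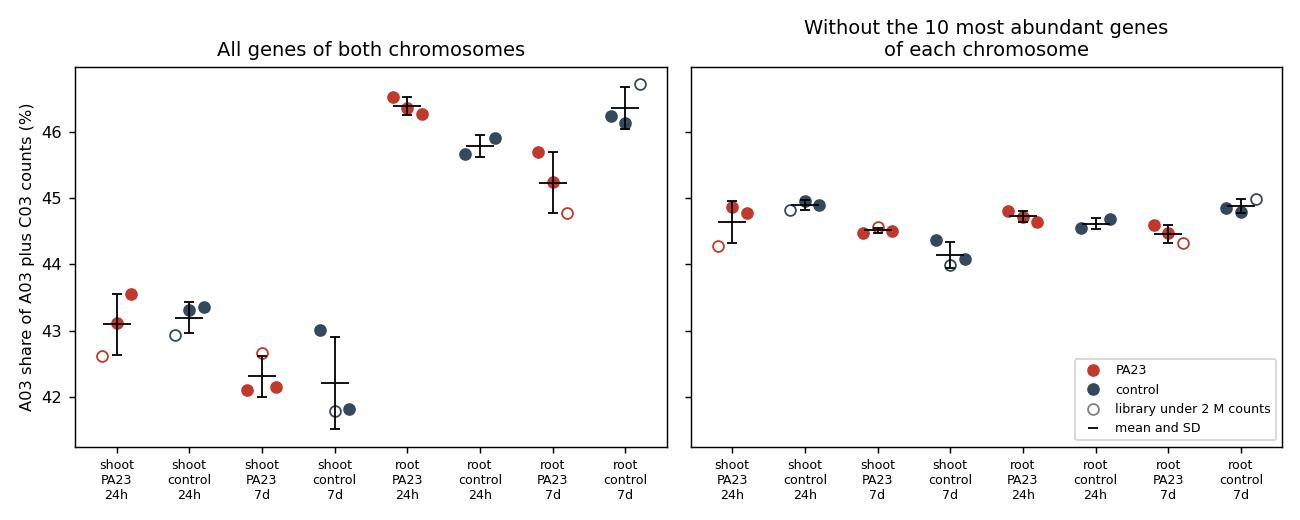
A03 share of the counts on A03 and C03 (vertical axis, percent; the axis does not start at 0) in every library of the 8 groups (horizontal axis), for all genes at the left and without the 10 most abundant genes of each chromosome at the right; bars give mean and SD and open symbols mark libraries under 2 M counts. With all genes the shoot libraries lie between 41.8% and 43.5% and the root libraries between 44.8% and 46.7%, and at the right the tissues overlap.

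In roots at 24 h, a small share of the genes of both chromosomes was called between PA23 and control. The test called 23 of 8356 tested genes of A03 and C03 (0.275%), against 0.268% of all 63551 tested genes. Of these, 12 were higher with PA23 (5 on A03, 7 on C03; 0.146% of all tested genes) and 11 were lower (5 on A03, 6 on C03; 0.121% of all). The median log2 fold change was 0.05 for A03, 0.05 for C03 and 0.05 for all genes. The call of 23 depended on single libraries. It was 3 and 2 when PA23 replicates 2 and 3 were omitted in turn, and 5 and 12 when control replicates 2 and 3 were. DESeq2 called 123, and 5 were called when the closest replicates were summed.

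BnaC03g02770D (C03, 1375065 to 1376179) had 9.24, 17.1 and 15.2 CPM in PA23 roots at 24 h, against 0.646 and 0.566 CPM in control roots. Its log2 fold change was 4.52 ± 0.66 (SE; adjusted p 0.0282 in edgeR). Groups without overlap were a condition for naming a gene. BnaA03g39710D (A03, 19802712 to 19807843) had 0.747, 1.23 and 1.53 CPM in PA23 roots and 0.0718 and 0.212 CPM in control roots, a log2 fold change of 2.97 ± 0.56 (adjusted p 0.0347). Lower with PA23 was BnaA03g38440D (A03, 19109547 to 19113476), with 1.13, 1.85 and 1.04 CPM in PA23 roots and 16.4 and 5.36 CPM in control roots. Its log2 fold change was -3.07 ± 0.43 (adjusted p 0.00799), and the control libraries also differed from each other. BnaC03g24700D (C03, 13877751 to 13879070) had 0.542, 0.486 and 0.698 CPM in PA23 roots and 3.57 and 3.17 CPM in control roots, a log2 fold change of -2.55 ± 0.40 (adjusted p 0.0132). Without control replicate 2 none of the 4 passed the threshold, with adjusted p from 0.135 to 0.420. Without control replicate 3, BnaC03g02770D and BnaA03g39710D did not pass it (adjusted p 0.198 and 0.0968). Without PA23 replicate 2, BnaC03g02770D, BnaA03g39710D and BnaC03g24700D did not pass it (0.0855, 0.124 and 0.0847), and without PA23 replicate 3 none of the 4 did (0.0579 to 0.170).

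**Figure D5:**
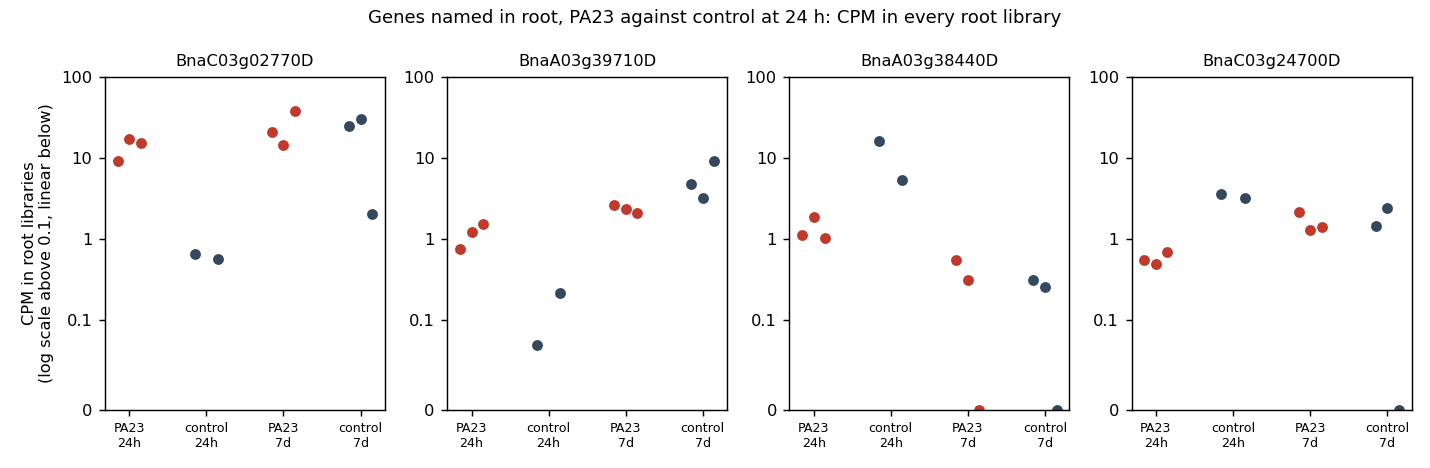
CPM (vertical axis, log scale above 0.1 and linear below) in every root library of the 4 root groups (horizontal axis; PA23 in red, control in dark blue) for BnaC03g02770D, BnaA03g39710D, BnaA03g38440D and BnaC03g24700D. At 24 h the PA23 points do not overlap the 2 control points for any of the 4 genes, which was a condition for naming a gene. At 7 d they overlap for 3 of them, and for BnaA03g39710D they lie below the control points.

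At 7 d no PA23 difference passed the threshold in roots. edgeR called 0 of 8356 genes of A03 and C03 (0.0% of all tested genes), with 567 at an unadjusted p under 0.05, and DESeq2 called 26. Without PA23 replicate 1, the library with the other pattern of odd counts, the count was 55, and it was 15 without control replicate 2. In shoots at 24 h edgeR called 0 of 7451 genes (0.0% of the 56654 genes tested in all), with 85 at an unadjusted p under 0.05, and DESeq2 called 0. In shoots at 7 d edgeR called 0, against 0.00177% of all tested genes, with 359 at an unadjusted p under 0.05, and DESeq2 called 6. Without control replicate 1 of that group, which differed from its replicates by a coefficient of variation of 37.1% to 37.6%, the count in shoots at 7 d was 94. The control replicates 2 and 3 then left are among the closest of the series, as are PA23 replicates 1 and 3. The cause of the higher count was not tested.

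Averaged over both harvests, no change in the balance of the copies with PA23 passed the threshold. edgeR called 0 of 623 pairs for a different ratio of A03 to C03 with PA23 in shoots, with 23 at an unadjusted p under 0.05, and 0 in roots, with 19 at an unadjusted p under 0.05; no other tool was run on the ratios. The A03 share of both chromosomes averaged 42.7% ± 0.55 in PA23 shoots and 42.7% ± 0.71 in control shoots (SD, n = 6 each; difference 0.001 points, exact permutation p = 0.998, adjusted 0.998). In roots it averaged 45.8% ± 0.70 with PA23 (n = 6) and 46.1% ± 0.39 in controls (n = 5), a difference of -0.32 points (exact permutation p = 0.392, adjusted 0.490). The root difference had opposite signs at the harvests. At 24 h it was 0.60 points, with 46.5%, 46.4% and 46.3% in PA23 roots and 45.7% and 45.9% in control roots, and at 7 d it was -1.13 points, with 45.7%, 45.2% and 44.8% in PA23 roots and 46.2%, 46.1% and 46.7% in control roots. The effect at 7 d minus that at 24 h was -1.73 points (exact permutation p = 0.005, the smallest that its 200 arrangements allow, adjusted over 6 such comparisons 0.015). Treatment labels were permuted within each harvest, so a small p can also come from an effect at a single harvest. This test was added after the values had been seen.

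More genes were called between harvests than between PA23 and control, although whether the effects differ in size was not tested. In control roots, 142 of 8356 genes of A03 and C03 (1.70%) differed between 7 d and 24 h, against 1.72% of all tested genes. Of these 110 were higher at 7 d (59 on A03, 51 on C03, where 1.27% of all genes were higher) and 32 lower (14 on A03, 18 on C03, with 0.452% of all). In PA23 roots 541 (6.47%) differed, against 7.06% of all tested genes, with 215 higher at 7 d (102 on A03, 113 on C03, and 2.78% of all) and 326 lower (154 on A03, 172 on C03, and 4.28% of all). The median log2 fold change in control roots was -0.004 for A03, -0.03 for C03 and -0.02 for all genes, and in PA23 roots -0.02 for A03, -0.02 for C03 and -0.03 for all genes. Whether the change with harvest differed between PA23 and control roots was not tested gene by gene. Leaving out control libraries changed the count in control roots to 36 and 47 (24 h replicates 2 and 3) and to 245 and 72 (7 d replicates 1 and 2). In PA23 roots it was 207, 173 and 182 without PA23 24 h replicates 1, 2 and 3, 106 without PA23 7 d replicate 2, 184 with the closest replicates summed, and 264 with the library-name prefix as a covariate. With same-numbered replicates paired as a block the count in PA23 roots was also lower, as given with the alternatives at the end. Over the 666 pairs with both copies tested, harvest in PA23 roots was called higher for both copies in 6, lower for both in 12 and in opposite directions in 0. The A03 copy alone was called in 21, the C03 copy alone in 27 and neither in 600.

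The control root libraries at 24 h also served in the PA23 comparison at that harvest, so the 2 comparisons are not independent. BnaC03g02770D had 25.1, 30.7 and 2.04 CPM in control roots at 7 d and 0.646 and 0.566 CPM at 24 h, and its log2 fold change was 5.27 ± 0.69 (adjusted p 0.00556 in edgeR), and did not pass the threshold without control 24 h replicate 2 (adjusted p 0.0769) or 3 (0.0746). BnaA03g39710D had 4.77, 3.20 and 9.19 CPM at 7 d and 0.0718 and 0.212 CPM at 24 h, a log2 fold change of 4.96 ± 0.59. BnaA03g38440D had 0.311, 0.253 and 0 CPM at 7 d and 16.4 and 5.36 CPM at 24 h, a log2 fold change of -5.30 ± 0.56. BnaC03g45280D (C03, 30294324 to 30298394) had 1.40, 1.07 and 2.04 CPM at 7 d and 28.2 and 12.3 CPM at 24 h, a log2 fold change of -4.02 ± 0.38. The adjusted p of the last 3 was at most 0.000582.

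In PA23 roots, BnaA03g48730D (A03, 25008215 to 25008403) had 4.39, 2.57 and 2.09 CPM at 7 d and 0.245, 0.162 and 0.0225 CPM at 24 h (log2 fold change 4.39 ± 0.72, adjusted p 0.00406 in edgeR). BnaA03g41540D (A03, 20863324 to 20868014) had 3.87, 3.78 and 1.39 CPM at 7 d and 0.534, 0 and 0.124 CPM at 24 h, a log2 fold change of 3.65 ± 0.58 (adjusted p 0.00277). BnaC03g48160D (C03, 33109332 to 33113982) had 0.331, 0.129 and 0 CPM at 7 d and 4.66, 3.59 and 2.51 CPM at 24 h, a log2 fold change of -4.01 ± 0.53 (adjusted p 0.000773). BnaA03g22790D (A03, 10833279 to 10835504) had 0.497, 0.643 and 1.39 CPM at 7 d and 4.54, 6.44 and 7.22 CPM at 24 h, a log2 fold change of -3.32 ± 0.84 (adjusted p 0.0414). Leaving out any one of the 6 libraries raised the adjusted p of BnaA03g22790D to between 0.0680 and 0.214, and none of these omissions ended the calls of the other 3 genes. With same-numbered replicates paired as a block, the adjusted p of BnaA03g22790D was 0.0591.

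In control shoots, 124 of 7451 genes (1.66%) differed between 7 d and 24 h, against 1.47% of all tested genes. Of these 43 were higher at 7 d (19 on A03, 24 on C03, and 0.658% of all) and 81 lower (45 on A03, 36 on C03, and 0.812% of all). In PA23 shoots 58 (0.778%) differed, against 0.75% of all tested genes, with 36 higher (14 on A03, 22 on C03, and 0.45% of all) and 22 lower (14 on A03, 8 on C03, and 0.3% of all). The median log2 fold change in control shoots was -0.03 for A03, 0.002 for C03 and 0.01 for all genes, and in PA23 shoots -0.04 for A03, -0.01 for C03 and -0.003 for all genes. The count in control shoots was 36 and 43 without control 24 h replicates 2 and 3, and 270, 71 and 77 without control 7 d replicates 1, 2 and 3. Omitting control 7 d replicate 1 left replicates 2 and 3, which are among the closest of the series. The count was 39 with the closest replicates summed. In PA23 shoots it was 16 and 30 without PA23 24 h replicates 2 and 3, and 9, 145 and 9 without PA23 7 d replicates 1, 2 and 3. With replicates 1 and 3 at 7 d, the closest in the series, summed to 1 library, it was 7. The shallow PA23 7 d replicate 2 lay with the 24 h libraries in some genes. BnaA03g46780D had 21.4, 2.47 and 22.8 CPM in PA23 shoots at 7 d and 3.08, 1.82 and 3.41 CPM at 24 h, and BnaC03g60820D had 0.277, 4.93 and 0.429 CPM at 7 d and 2.05, 3.96 and 2.98 CPM at 24 h.

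BnaC03g23750D (C03, 13250300 to 13251194) was higher at 7 d in both treatments. It had 46.8, 33.4 and 25.2 CPM at 7 d and 4.87, 4.29 and 3.45 CPM at 24 h in control shoots, and 76.7, 12.3 and 76.7 CPM at 7 d and 0, 5.46 and 4.26 CPM at 24 h in PA23 shoots. The log2 fold changes were 3.14 ± 0.54 in control shoots and 3.73 ± 0.54 in PA23 shoots (edgeR adjusted p 0.0121 and 0.00693). Neither call held in every set with a library left out, with adjusted p up to 0.124 in control shoots (24 h replicates 2 and 3) and up to 0.0661 in PA23 shoots (24 h replicates 2 and 3, 7 d replicates 1 and 3). BnaA03g46780D (A03, 23990545 to 23993883) had 15.8, 16.7 and 12.4 CPM at 7 d and 4.87, 0.952 and 2.06 CPM at 24 h in control shoots, a log2 fold change of 3.08 ± 0.50 (adjusted p 0.00212). BnaC03g60820D (C03, 49964815 to 49967505) had 0, 0 and 0.0445 CPM at 7 d and 4.87, 6.69 and 4.58 CPM at 24 h in control shoots. It had 2 counts at 7 d and 530 at 24 h, a ratio of 0.0041 to the level at 24 h (95% exact interval 0.000495 to 0.0149, counting error only; adjusted p 9.45e-05). BnaA03g02070D (A03, 950258 to 951244) had 0.757, 0 and 0.490 CPM at 7 d and 1.62, 8.59 and 13.4 CPM at 24 h, a log2 fold change of -3.95 ± 0.60 (adjusted p 0.000568).

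In PA23 shoots, BnaC03g54940D (C03, 43284669 to 43285508) had 6.79, 7.4 and 6.63 CPM at 7 d and 0, 0.979 and 1.28 CPM at 24 h (log2 fold change 2.71 ± 0.64, adjusted p 0.0391 in edgeR). BnaC03g68280D (C03, 57961823 to 57962718) had 1.68, 4.93 and 1.38 CPM at 7 d and 10.3, 7.08 and 8.94 CPM at 24 h, a log2 fold change of -2.31 ± 0.46 (adjusted p 0.0127). BnaA03g44970D (A03, 22842465 to 22846381) had 2.77, 3.70 and 2.93 CPM at 7 d and 7.18, 8.04 and 15.9 CPM at 24 h, a log2 fold change of -1.95 ± 0.37 (adjusted p 0.00882). Leaving out PA23 7 d replicate 1 or 3 ended all 3 calls (adjusted p 0.217 to 0.462). So did PA23 24 h replicate 3 (0.0652 to 0.1504), and 24 h replicates 1 and 2 each ended that of BnaC03g54940D (0.0856 and 0.281).

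The mean A03 share in shoots was a little lower at 7 d than at 24 h. The A03 share was 42.3% ± 0.48 at 7 d (range 41.8% to 43.0%) and 43.1% ± 0.33 at 24 h (42.6% to 43.5%; SD, n = 6 each), a difference of -0.89 points (exact permutation p = 0.0108, adjusted over 5 comparisons 0.0271). The ranges overlapped. The difference did not pass the threshold under several alternatives (exact permutation tests, adjusted p). It was -0.43 points without the 10 most abundant genes of each chromosome (adjusted p 0.0649), -1.06 points without the shallow libraries (0.0714) and -0.41 points over the gene pairs (0.281). With same-numbered replicates as a block the adjusted p was 0.0694. In roots the share was 45.8% ± 0.71 at 7 d (n = 6) and 46.1% ± 0.35 at 24 h (n = 5), a difference of -0.35 points (exact permutation p = 0.346, adjusted 0.490).

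The ratio of the copies changed with harvest in few pairs. In shoots 19 of 623 pairs (3.05%) passed the threshold, with the ratio of A03 to C03 higher at 7 d in 12 and lower in 7, and in roots 3 pairs (0.482%) did. The pair of BnaA03g18070D (A03, 8495735 to 8497930) and BnaC03g21590D (C03, 11678913 to 11681085) had the lowest log2 change of the ratio among the 19, -1.33 ± 0.15 (SE). At 7 d the A03 copy had 5.12, 27.1 and 5.22 CPM in PA23 shoots and 4.78, 2.18 and 4.61 CPM in control shoots. At 24 h it had 27.7, 25.4 and 22.9 CPM in PA23 shoots and 29.2, 32.2 and 32.2 CPM in control shoots. The C03 copy had 40.4, 96.2 and 34.8 CPM in PA23 shoots and 51.0, 30.5 and 30.5 CPM in control shoots at 7 d. At 24 h it had 59.5, 77.5 and 77.7 CPM in PA23 shoots and 79.5, 92.4 and 100.6 CPM in control shoots. For both copies, PA23 7 d replicate 2, a shallow library, lay with the 24 h libraries and apart from the other 7 d libraries. The highest log2 change among the 19, 4.12 ± 0.96 (SE; edgeR adjusted p 0.00785), was that of BnaA03g18870D (A03, 8900980 to 8902883) with BnaC03g22460D (C03, 12402305 to 12404231). Both copies of that pair were at low levels, with the A03 copy at or under 1.62 CPM and the C03 copy at or under 4.08 CPM in every shoot library. In BnaA03g18480D (A03, 8685099 to 8687480) and BnaC03g21960D (C03, 11997443 to 11999853) the log2 ratio was 1.94 ± 0.41 higher at 7 d (edgeR adjusted p 0.00690). That A03 copy had 4.27, 14.8 and 4.08 CPM in PA23 shoots and 3.12, 8.70 and 6.15 CPM in control shoots at 7 d. At 24 h it had 6.16, 8.75 and 5.04 CPM in PA23 shoots and 3.25, 10.9 and 9.27 CPM in control shoots. Its C03 copy had 0.317, 0 and 0.0477 CPM in PA23 shoots and 0.146, 2.90 and 0.757 CPM in control shoots at 7 d. At 24 h it had 0, 3.05 and 0.568 CPM in PA23 shoots and 0, 4.41 and 1.26 CPM in control shoots. The C03 values overlapped between the harvests, and those of 0 were in shallow libraries. The count of 19 was 7 when PA23 24 h replicate 2 was omitted, 5 and 10 without control 24 h replicates 2 and 3, 11 and 8 without PA23 7 d replicates 1 and 3, and 11 without root PA23 24 h replicate 1. It was also 7 with the closest replicates summed. The count of 3 in roots was 0 without root control 24 h replicate 2, 1 without root PA23 7 d replicate 1 and 6 without root control 7 d replicate 1.

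The 3 root pairs showed different patterns. BnaA03g08870D (A03, 4017826 to 4019233) had 5.36, 4.86 and 4.18 CPM at 7 d and 11.1, 7.02 and 7.17 CPM at 24 h in PA23 roots. In control roots it had 5.39, 5.19 and 6.13 CPM at 7 d and 18.3 and 15.5 CPM at 24 h. Its partner BnaC03g11200D (C03, 5478335 to 5479709) stayed between 4.08 and 6.62 CPM in all root libraries. The log2 ratio of the copies was lower at 7 d by 1.18 (-1.18 ± 0.22, SE, edgeR adjusted p 0.00412). In shoots BnaA03g08870D was at 0 in every library except control 24 h replicate 3, at 0.0826 CPM, while BnaC03g11200D had a median of 7.71 CPM. BnaA03g36320D (A03, 17753753 to 17757085) had 10.1, 5.71 and 11.8 CPM at 7 d and 4.80, 1.55 and 1.84 CPM at 24 h in PA23 roots. In control roots it had 4.01, 15.8 and 2.04 CPM at 7 d and 0.539 and 1.22 CPM at 24 h. Its partner BnaC03g42180D (C03, 26991983 to 26995291) had a median of 10.0 CPM over the root libraries, and the log2 ratio was 2.34 ± 0.46 higher at 7 d (adjusted p 0.0207). The third pair, BnaA03g35040D with BnaC03g40750D, was at or under 0.38 CPM in every root library except the shallow PA23 7 d replicate 3, in which BnaA03g35040D had 4.18 CPM and BnaC03g40750D 2.09 CPM.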

How the data were processed

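RNA-seq was measured in 23 libraries of Brassica napus shoots and roots. The authors deposited a table of read counts per gene, which holds whole numbers without normalization, with chromosome, start, end, strand and length. HISAT2 and DESeq2 are named, without version or role, in the submitters' processing notes. No source used here gives the genome build, annotation, counting program, strand setting or treatment of reads shared by A and C copies. Gene length equals the span from start to end for all 101040 genes, so it includes introns.

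Counts were scaled by TMM and tested with edgeR 4.0.16 (R 4.3.3; quasi-likelihood test with robust dispersion, default filter on low counts, Benjamini-Hochberg adjusted p under 0.05 over all genes tested). Roots (11 libraries) and shoots (12 libraries) were fitted separately, and all 23 libraries together for shoot against root. Tissue means of CPM are the mean of the 4 group means. The A03 share is the count on A03 divided by the count on A03 and C03, compared by 2-sided permutation tests over libraries. Wilson 95% intervals of the share in single libraries, which cover counting error only, were widest in root control 7 d replicate 3 (46.4% to 47.1%). The procedures were tested on simulated data. Alternatives were RLE size factors, no filter, DESeq2 1.42.0, a replicate block, the library-name prefix, omitted libraries and summed replicates.

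The chromosomes, gene lists and tests were chosen with earlier results of these data known, and the gene order alignment and its 932 pairs were added after the files had been seen. For each comparison, the 2 genes with the highest and the 2 with the lowest log2 fold change were named, among those past the threshold with a mean log2 CPM of at least 1 and no overlap of the groups. The 3 most abundant genes per chromosome and tissue and the extreme pairs were named likewise. Planned gene lists, tissue markers and protein matching could not be used because the IDs carry no gene names.

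Same-numbered replicates were taken as paired only where each pair's deviations from its group mean correlated by more than 0.1. This held for 7 d against 24 h in PA23 roots, with correlations of 0.12, 0.43 and 0.25 over 4373 genes, and not in the other comparisons. The main counts of called genes for that comparison still come from the fit without a block. The fit with a replicate block is given as an alternative.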

Additional observations from a re-analysis of the deposited data

Results flagged for a closer look

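The effect of PA23 on the A03 share in roots had opposite signs at the harvests. Treatment labels were permuted within each harvest, so p refers to no effect of PA23 at either harvest. An effect at a single harvest can also give a small p. PA23 minus control was -1.13 points at 7 d and 0.60 points at 24 h, a difference of -1.7258 points (exact permutation p = 0.005, the smallest of 200 arrangements, adjusted over 6 comparisons 0.015). Every PA23 library lay below every control library at 7 d and above every control library at 24 h. Without the 10 most abundant genes of each chromosome the difference was -0.527 points (exact permutation p = 0.015, adjusted 0.0225), and over the gene pairs alone it was -1.002 points (exact permutation p = 0.005, adjusted 0.015). It ran from -1.95 to -1.49 points when each root library was left out in turn, and was -1.31 points without the shallow libraries (exact permutation p = 0.0167). Among the libraries with the name prefix found in roots only, which include a single control library at each harvest, it was -1.53 points. All PA23 roots at 7 d had this prefix, while control replicates 1 and 3 at 7 d had the other. Treatment and prefix can therefore not be fully told apart at 7 d. All these values are a few points at most of a share near 46%, and the comparison was made after the values had been seen.

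In shoots the corresponding difference was 0.6218 points without the 10 most abundant genes of each chromosome, with PA23 minus control at 0.37 points at 7 d and -0.25 points at 24 h (exact permutation p = 0.01, adjusted 0.02). With all genes it was 0.21 points (exact permutation p = 0.67, adjusted 0.67), and over gene pairs -0.22 points (exact permutation p = 0.57, adjusted 0.67). The part that depth, library-name prefix or closely similar replicates may have in these differences was not tested beyond these values.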

How the results depend on the processing

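Counts of called genes of A03 and C03 depended strongly on single libraries, and the cause was not tested. Over the fits that left out 1 library, the count for PA23 ran from 2 to 26 in roots at 24 h, from 0 to 55 in roots at 7 d, 0 throughout in shoots at 24 h and from 0 to 94 in shoots at 7 d. For 7 d against 24 h it ran from 36 to 245 in control roots, 106 to 695 in PA23 roots, 36 to 270 in control shoots and 9 to 145 in PA23 shoots. For shoot against root it ran from 3590 to 4296 at 24 h and from 4237 to 4877 at 7 d.

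Without the 6 libraries under 2 M counts the count was 42 for PA23 in roots at 24 h, 214 for harvest in control roots and 132 for harvest in PA23 shoots. With the closest replicates summed, which leaves fewer libraries, it was 5 for PA23 in roots at 24 h, 184 for harvest in PA23 roots, 39 in control shoots and 7 in PA23 shoots. DESeq2 called 123 for PA23 in roots at 24 h, 26 in roots at 7 d and 6 in shoots at 7 d, where no filter gave 2. The prefix as a covariate gave 264 for harvest in PA23 roots, and it could not be estimated in shoots, which have a single prefix.

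The replicate block gave 384 against 541 for harvest in PA23 roots, where the pairing check held. Elsewhere libraries share only a number. There the block gave 73 for harvest in control roots, 3 for PA23 in shoots at 7 d and 9 pairs for harvest in shoots, and for harvest in shoots an A03 share difference of -0.89 points that missed the threshold (adjusted p 0.0694, exact permutation). It moved no other count by over 1.5 times.

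The A03 share difference of shoot against root was -0.13 points without the 10 most abundant genes, and 0.034 points over gene pairs and 0.019 in mean log2(CPM + 1), both of opposite sign. Leaving out libraries it ran from -3.37 to -3.17. For PA23 in shoots it was -0.14 without shallow libraries and -0.34 over pairs (-0.18 to 0.13 leaving out libraries). For PA23 in roots it was 0.034 without shallow libraries and 0.24 among libraries with the shoot prefix (-0.47 to -0.11). For harvest in shoots it was -0.43 without the 10 genes, -1.06 without shallow libraries and -0.41 over pairs, none past the threshold (-1.04 to -0.80). For harvest in roots it was 0.018 in mean log2(CPM + 1) and 0.26 among libraries with the shoot prefix (-0.53 to -0.14). The harvest difference of the PA23 effect was -1.53 in libraries with the root-only prefix (-1.95 to -1.49). In shoots it was 0.62 without the 10 genes, -0.22 over pairs and -0.27 without shallow libraries (-0.027 to 0.61, negative without PA23 24 h replicate 1).

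Silent windows numbered 9 with 25 genes, 0 with 100 genes and 0 without shallow libraries. Restricting pairs to spans within 1%, which leaves fewer pairs to test, gave 210 pairs for the mean ratio, 109 for tissue, 6 for harvest in shoots and 1 in roots. For harvest in shoots 34 pairs were called without shallow libraries and 7 with summed replicates. Leaving out libraries, pair counts ran from 472 to 494 (mean), 247 to 285 (tissue), 5 to 23 (harvest in shoots), 0 to 6 (harvest in roots) and 0 to 1 (PA23 in roots). Low depth in 6 libraries limits genes under a few CPM in those groups.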
